A study of Mus musculus with 6 samples.

Results

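The interleukin-6 (IL-6) cytokine family was followed in cultured primary mouse fibroblasts through 10 genes chosen for their roles. They are 4 ligand genes (Il6, Il11, Lif and Osm), 4 receptor genes (Il6ra, Il6st, Lifr and Osmr), the transcription factor gene Stat3 and its feedback inhibitor Socs3. All 10 were found by symbol among the 51912 genes of the deposited table, and all 10 were among the 13139 genes that were tested. RNA sequencing had been done on 3 control libraries and on 3 libraries of cells given the chemokine CXCL3 for 48 h, both from animals aged 6 weeks. CXCL3 is a secreted chemokine that signals through CXCR2, and the series title places the experiment in work on myofibroblasts and the spread of pancreatic cancer. The sources used here give neither the organ of origin, the mouse strain and the CXCL3 dose nor what the controls received. Nothing in the labels says that replicates were separate cultures or animals, so p-values measure the spread between these libraries, which may be technical.

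Cytokines of this family signal through receptor complexes that mostly share the chain gp130, encoded by Il6st. IL-6 first binds IL-6R (Il6ra) and IL-11 its own receptor (Il11ra1), after which gp130 is recruited, while LIF uses gp130 with LIFR and mouse oncostatin M uses gp130 with OSMR. Janus kinases on these chains phosphorylate STAT3, which enters the nucleus and switches on target genes, among them Socs3, whose product binds gp130 and shuts the kinases down. In pancreatic tumours, fibroblasts of the inflammatory kind are known as a source of IL-6, LIF and IL-11, and macrophages as a source of oncostatin M.

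Values are TPM, the abundance unit of RNA sequencing that gives a gene's share of each library's transcripts corrected for transcript length. Levels can therefore be set side by side between genes, within the limit of the length trend described below. They carry no read depth, and counting intervals are not given. The libraries were uneven in a way that bears on this family. Controls 2 and 3 lay apart from the other 4 libraries on the axis that held 52.9% of the variance, and log2 values had a median SD of 0.20 among controls and 0.086 among treated libraries. Deviations of controls 2 and 3 from the mean of all 6 libraries had Spearman correlations of -0.50 and -0.48 with transcript length across genes, against 0.20 to 0.45 in the other 4, so long transcripts read low in those controls. Macrophage genes were abundant too. The 9 markers listed summed to 14802 to 17793 TPM in controls and 14586 to 14670 TPM with CXCL3, but Lyz2 (lysozyme) alone made up 89.6% to 90.9% of each sum. The other 8 summed to 1543 to 1647 TPM in controls and 1426 to 1471 TPM with CXCL3. The 7 fibroblast markers summed to 1391 to 2076 TPM in controls and 1350 to 1444 TPM with CXCL3, with Lum (lumican) at no more than 0.50 TPM in any library. Cd3d and Cd3e (T cells) and Cpa3 (mast cells) were listed at 0 in every library, but the T cell marker Lck was at 1.11 to 2.16 TPM. All 5 epithelial markers together reached at most 1.96 TPM. Wt1 of the mesothelial list was at 22.11 to 33.34 TPM and Cela1 of the pancreatic acinar list at 23.44 to 27.28 TPM. The other 3 markers in each of these lists stayed under 1 TPM. Of the 5 neutrophil markers S100a8, also made by activated macrophages, was at 529.13 to 668.66 TPM, while S100a9 reached at most 0.71 TPM, Ly6g 0.08 TPM, Mpo 1.05 TPM and Csf3r 5.0 TPM. Fewer cells of a type and less RNA per cell cannot be told apart in such bulk values, and the part of the macrophages in the levels below was not tested.

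Il6 stood far above the rest of the family, and the receptor chain that binds IL-6 stood near the bottom. Il6 lay between 999.13 and 1152.57 TPM over the 6 libraries, 132nd from the top among the genes tested, and 8.94 to 16.3 times as high as Osmr, the next gene, in the same library. Osmr (68.29 to 116.73 TPM), Stat3 (64.6 to 100.15 TPM), Socs3 (64.81 to 83.36 TPM) and Il11 (63.19 to 74.7 TPM) followed, and each overlapped its neighbour in this order. Lif came below them (29.54 to 43.16 TPM), apart from Il11 and from Il6st (10.37 to 23.11 TPM). Il6st overlapped Osm (10.31 to 12.37 TPM). Il6ra (1.18 to 2.94 TPM) and Lifr (0.81 to 1.52 TPM) were lowest and overlapped each other, and the mean of Lifr exceeded that of only 2.52% of the genes tested. In TPM, Il6 was 355 to 946 times as high as Il6ra within a library, at 355 in control 1 against 946 and 900.4 in controls 2 and 3. Ratios between genes of unlike length carry the length trend given above. Among receptors Osmr was the most abundant of the 4, at 5.05 to 7.44 times Il6st and 76.2 to 101 times Lifr within a library.

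**Figure D1:**
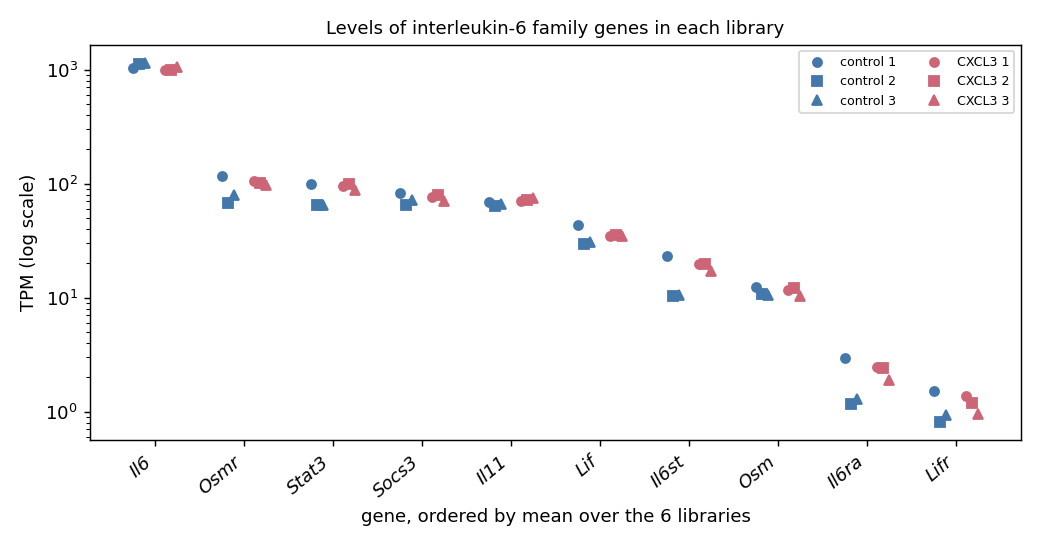
TPM (log axis) of the 10 genes in each library, ordered by their mean; blue marks are controls, red marks CXCL3, and the shape gives the replicate. Il6 lies between 999.13 and 1152.57 TPM in all 6 libraries, Il6ra and Lifr near 1 to 3 TPM, and controls 2 and 3 lie under the other 4 libraries for the 4 receptors.

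No member passed the test between CXCL3 and control. By limma with Benjamini-Hochberg adjustment over all genes, 0 of the 10 had an adjusted p under 0.05, where 0.16% of the genes tested did, and 0 of the 10 had an unadjusted p under 0.05, where 11.6% did. Fold changes were positive for 9 of the 10 with a median log2 value of 0.10, against 62.3% positive and a median of 0.07 over all genes tested. The groups did not overlap for 1 member, Il11, and 17.2% of all genes were separate in that way. With 3 libraries a group, the smallest p of an exact permutation test is 0.1, and none was run on single genes.

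Among the ligands, Il6 encodes the founding cytokine of the family. It was at 1043.38, 1116.33 and 1152.57 TPM in control libraries 1 to 3, against 999.13, 1001.92 and 1047.02 TPM with CXCL3. The lowest control and the highest CXCL3 library all but met, with an overlap of a few TPM. The log2 fold change, CXCL3 minus control, was -0.12 ± 0.06 (SE, n = 3 each; 95% interval -0.27 to 0.03; limma, adjusted p = 0.471), which bounds the fold between 0.831 and 1.02. Il11, whose product drives matrix production by fibroblasts in an autocrine way, was at 68.85, 63.19 and 65.96 TPM in controls and at 70.58, 71.89 and 74.7 TPM with CXCL3. Every CXCL3 library lay above every control, by a narrow margin (log2 fold change 0.13 ± 0.07, 95% interval -0.03 to 0.30, adjusted p = 0.472). The ratio of Il6 to Il11 within a library was 15.2, 17.7 and 17.5 in controls and 14.2, 13.9 and 14.0 with CXCL3, without overlap. That ratio was chosen from 14 after its values were seen, and was not tested.

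Lif, the leukaemia inhibitory factor gene, was at 43.16, 29.54 and 30.82 TPM in controls and at 35.11, 35.72 and 34.42 TPM with CXCL3. The treated libraries were tightly grouped and lay between control 1 and the other controls (log2 fold change 0.04 ± 0.14, adjusted p = 0.886). Osm, the oncostatin M gene, was at 12.37, 10.74 and 10.6 TPM in controls and at 11.75, 12.27 and 10.31 TPM with CXCL3 (0.02 ± 0.12, 95% interval -0.26 to 0.31, adjusted p = 0.929). Its groups covered nearly the same range. Lif and Osm lie side by side on chromosome 11 (GRCm38, chr11:4257557-4272514 and chr11:4236420-4241026, same strand), 16.5 kb apart with 0 coding genes between. Il6 lies at chr5:30013114-30019981 and Il11 at chr7:4772373-4782859.

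The start regions of Il6 and Il11 are shown because these ligands had the smallest p of the 4 and are known for control by inflammatory and stress factors. Sequences are RefSeq windows of 250 bases before the annotated start (build GRCm38.p6), given 5′ to 3′ on the gene's strand. Capitals mark matches, on either strand, to 4 motif strings: TTCNNNGAA (STAT), GGANTTTCC (NF-kappaB), TGANTCA (AP-1) and TTGNGCAA (C/EBP). The Il6 window (chr5:30012864-30013113, plus strand) holds an AP-1 string, a C/EBP string and an NF-kappaB string, in that order. The Il11 window (chr7:4778142-4778391, minus strand) belongs to the inner of 2 RefSeq starts, within the span that GENCODE gives the gene, and holds an AP-1 string.
Il6: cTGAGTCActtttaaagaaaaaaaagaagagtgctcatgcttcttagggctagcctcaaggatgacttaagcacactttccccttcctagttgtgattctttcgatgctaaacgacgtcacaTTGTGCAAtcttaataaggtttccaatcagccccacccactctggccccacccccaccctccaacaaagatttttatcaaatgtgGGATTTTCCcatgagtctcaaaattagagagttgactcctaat
Il11: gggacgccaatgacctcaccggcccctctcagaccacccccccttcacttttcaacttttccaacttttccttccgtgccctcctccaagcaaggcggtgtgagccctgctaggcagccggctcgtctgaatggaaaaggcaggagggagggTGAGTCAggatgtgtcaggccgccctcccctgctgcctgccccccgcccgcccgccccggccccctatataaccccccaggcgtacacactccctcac
Of all 32851 RefSeq windows of this length, 7.02% held the STAT string, 1.07% the NF-kappaB string, 6.75% the AP-1 string and 2.61% the C/EBP string. Among the 9 members with a window, the NF-kappaB and C/EBP strings were found in Il6 alone, the AP-1 string in Il6, Il11 and Lif, and the STAT string in Socs3 alone. These members had 11 windows, and those of Il6ra and Osmr lay wholly within annotated exons (250 bases each). A match describes the letters and not a bound site.

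All 4 receptor genes shared one pattern, low in controls 2 and 3 and high in control 1, with the CXCL3 libraries between. Il6st, the gene of gp130, was at 23.11, 10.37 and 10.63 TPM in controls and at 19.89, 19.64 and 17.17 TPM with CXCL3 (log2 fold change 0.43 ± 0.28, 95% interval -0.22 to 1.08, adjusted p = 0.503). Control 1 was 2.20 times the mean of controls 2 and 3, and above every treated library. Il6ra, the IL-6 binding chain, was at 2.94, 1.18 and 1.28 TPM in controls and at 2.49, 2.41 and 1.90 TPM with CXCL3 (0.27 ± 0.25, adjusted p = 0.597). Il6ra and Il6st kept a nearly constant proportion, with 7.86 to 9.04 Il6st transcripts for each of Il6ra in the 6 libraries, and their longest transcripts are alike in length (8639 and 8678 bases). Osmr, the oncostatin M receptor chain, was at 116.73, 68.29 and 79.12 TPM in controls and at 105.17, 101.89 and 97.38 TPM with CXCL3 (0.24 ± 0.18, 95% interval -0.18 to 0.66, adjusted p = 0.535). Lifr, the LIF receptor chain, was at 1.52, 0.81 and 0.94 TPM in controls and at 1.38, 1.20 and 0.96 TPM with CXCL3 (0.07 ± 0.18, adjusted p = 0.851).

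Osmr (chr15:6813577-6874969, minus strand) and Lifr (chr15:7090614-7197489, plus strand) are neighbours with 0 coding genes in the 216 kb between them, and Osmr was the highest and Lifr the lowest of the 4. Il6st lies at chr13:112464070-112510086 and Il6ra at chr3:89864059-89913196. Il6ra is overlapped by the antisense gene Gm42809, listed at no more than 0.15 TPM.

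In the STAT3 arm, Stat3 was at 100.15, 64.6 and 65.04 TPM in controls and at 95.61, 98.91 and 88.6 TPM with CXCL3. Control 1 was the highest library of the 6 and controls 2 and 3 the lowest (log2 fold change 0.33 ± 0.17, 95% interval -0.06 to 0.71, adjusted p = 0.462). Stat3 (chr11:100885098-100939540) overlaps the end of Stat5a on the opposite strand, which was at 4.11 to 8.06 TPM, and the counting is not stated to use strand. Socs3 (chr11:117966079-117970047), the feedback inhibitor, was at 83.36, 64.81 and 71.3 TPM in controls and at 76.49, 80.13 and 70.37 TPM with CXCL3, with full overlap (0.05 ± 0.11, 95% interval -0.19 to 0.30, adjusted p = 0.81). The interval bounds the fold of Socs3 between 0.874 and 1.23. The ratio of Stat3 to Socs3 within a library was 1.20, 0.997 and 0.912 in controls and 1.25, 1.23 and 1.26 with CXCL3, so Stat3 was the higher of the pair in 4 of the 6 libraries and the lower in controls 2 and 3. This ratio too was singled out afterwards and not tested.

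The Socs3 window is shown because it was the 1 member window with the STAT string, here TTCTTAGAA, 154 to 146 bases before the RefSeq start. The stretch runs from 250 to 86 bases before that start (chr11:117969452-117969616, minus strand). The 85 bases nearer to it, which reach an exon of another GENCODE transcript, are left out.
Socs3: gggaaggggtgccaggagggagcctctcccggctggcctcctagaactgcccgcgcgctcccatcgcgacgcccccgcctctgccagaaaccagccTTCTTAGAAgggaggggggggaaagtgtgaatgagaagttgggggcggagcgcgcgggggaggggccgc

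The direction of most members depended on the controls used. Without control 1, 6 of the 10 passed (limma, adjusted p under 0.05), where 32.4% of all genes did: Il6st (log2 fold change 0.79, adjusted p = 0.00498), Stat3 (0.53, 0.00516), Osmr (0.46, 0.00865), Il6ra (0.55, 0.0333) and Lif (0.21, 0.0412) higher, and Il6 (-0.16, 0.0408) lower. Set against control 1 alone, without controls 2 and 3, the same 5 that had been higher were all below 0: Il6st -0.28, Stat3 -0.09, Osmr -0.20, Il6ra -0.28 and Lif -0.29. In that comparison 0 members passed, where 0.639% of genes did, and the lone control was assumed to vary as the treated libraries do. Il6 (-0.04) and Il11 (0.07) kept their signs there, as they did in all 17 alternative settings, which for Il11 and a left-out library follows from groups that do not overlap. Library weights, which gave control 1 the least weight, called Il6st (0.69, adjusted p = 0.0439) and Stat3 (0.48, 0.0392), 2 of 10 where 11% of genes passed.

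**Figure D2:**
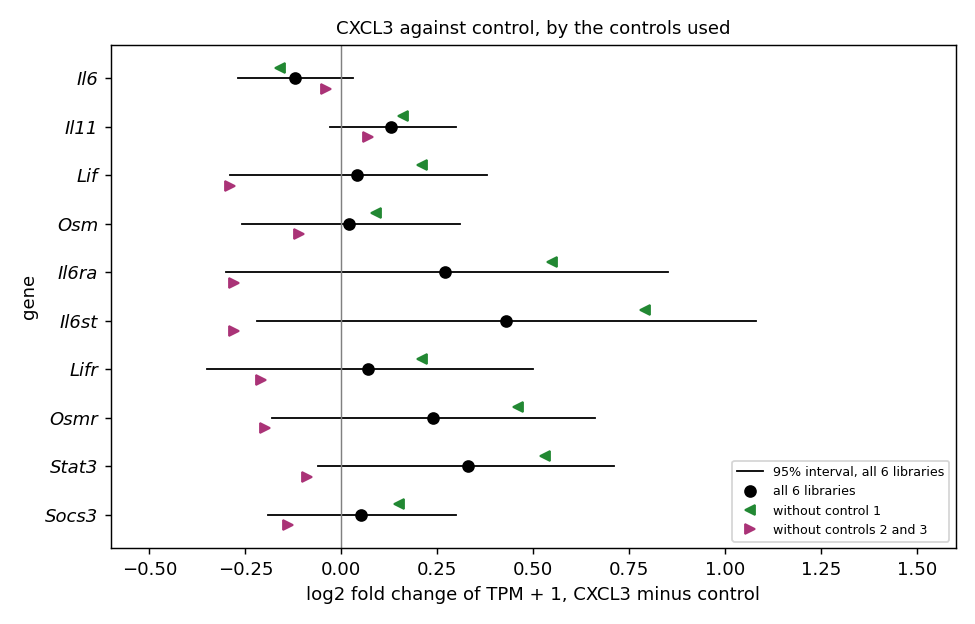
Log2 fold change of TPM + 1 (CXCL3 minus control) of each gene with all 6 libraries (black, with its 95% interval from limma), without control 1 (green) and without controls 2 and 3 (purple). For Il6st the value moves from 0.79 without control 1 to -0.28 without controls 2 and 3; those of Il6 and Il11 stay on one side of 0.

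The fall from control 1 to controls 2 and 3 was larger for members with longer transcripts. On the log2(TPM + 1) scale the difference was 0.12 for Il6 (2343 bases), -0.09 for Il11 (1949), -0.20 for Osm (2272) and -0.29 for Socs3 (2552). It was -0.50 for Lif (4026 bases), -0.66 for Osmr (5491), -0.62 for Stat3 (6042), -0.82 for Il6ra (8639), -1.07 for Il6st (8678) and -0.43 for Lifr (9655), the last at under 2 TPM where this scale compresses differences. Over the 10 genes, which share the same libraries, Spearman's rho between length and this difference was -0.77, a description only. Controls 2 and 3 were both below all other libraries for 7 of the 10 members, and for 42.2% of all genes tested. Removing each library's trend with transcript length, with all 6 libraries kept, moved the log2 fold change of Il6st from 0.43 to 0.18, of Stat3 from 0.33 to 0.12, of Osmr from 0.24 to 0.05 and of Il6ra from 0.27 to 0.02. As before the removal, 0 of the 10 members passed, and Il11 (0.16) had an adjusted p of 0.256 by limma.

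The same removal was also made without control 1, a setting chosen after seeing the data. There 2 of the 10 members passed (limma, adjusted p under 0.05), where 13.1% of all genes did. They were Il6st, higher with CXCL3 (log2 fold change 0.35, adjusted p = 0.0274 by limma, against 0.79 before the removal), and Il6, lower (-0.20, adjusted p = 0.0398, against -0.16). The other 4 that had passed without control 1 did not pass here. Their values were 0.18 for Stat3 (adjusted p = 0.0726), 0.13 for Osmr (0.181), 0.10 for Il6ra (0.603) and -0.01 for Lif (0.919).

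**Figure D3:**
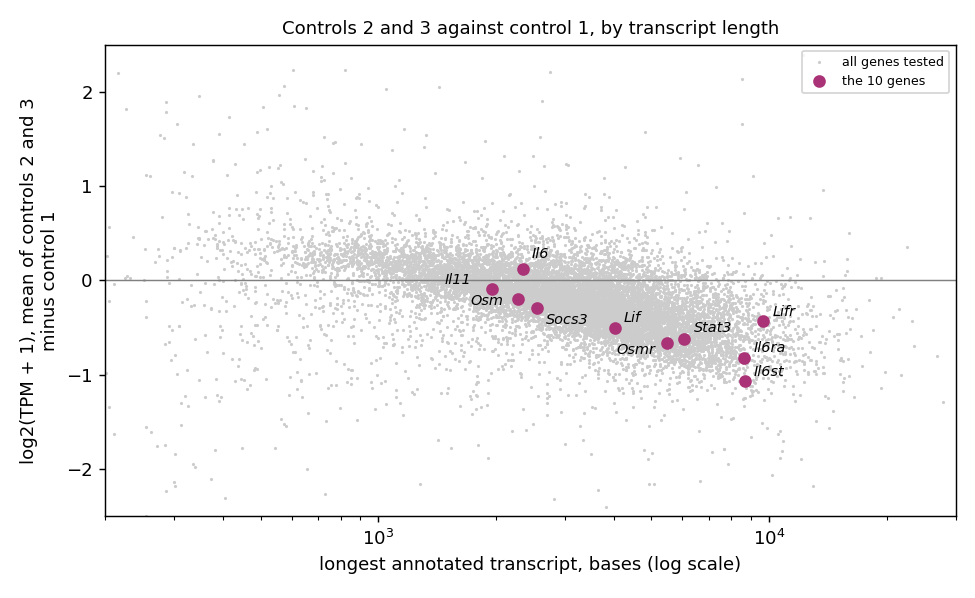
Difference in log2(TPM + 1) between the mean of controls 2 and 3 and control 1, against the longest annotated transcript in bases (log axis), for the 10 genes (purple) and all genes tested that have a length (grey; 51 genes lie outside the plotted range). Il6 lies at 0.12 and Il6st, with 8678 bases, at -1.07.

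The rest of the family was read from lists of textbook genes. Of the other receptor chains, Il31ra stood out in size. It encodes the IL-31 receptor chain, which pairs with OSMR rather than gp130, and it was at 99.35, 93.94 and 106.3 TPM in controls and at 131.7, 183.62 and 204.24 TPM with CXCL3. Every treated library lay above every control, but the treated libraries ranged widely among themselves. The log2 fold change was 0.77 ± 0.15 (95% interval 0.41 to 1.13, a fold of 1.33 to 2.18), and the adjusted p of 0.157 by limma did not pass. The value was 0.76 without control 1 (adjusted p = 0.0222 by limma, past the threshold), where 32.4% of all genes passed. It was 0.77 without controls 2 and 3 and 0.67 with the length trend removed. With that trend removed and control 1 left out it was 0.58 (adjusted p = 0.102 by limma). Over all settings the value of Il31ra ran from 0.58 to 0.95. Its partner Osmr was at similar abundance, with 0.851 to 2.10 Il31ra transcripts for each of Osmr. The ligand gene Il31 was listed at 0 in every library. Il11ra1, the IL-11 receptor, was at 24.92, 32.62 and 24.73 TPM in controls and at 23.39, 22.65 and 23.55 TPM with CXCL3 (-0.22 ± 0.12, adjusted p = 0.473), all treated libraries below all controls. Cntfr, the ciliary neurotrophic factor receptor, went from 3.26 ± 0.147 to 2.84 ± 0.143 TPM (mean ± SD, n = 3 each; adjusted p = 0.581 by limma), also without overlap. Il27ra was under 1 TPM and not tested. Of the 3 receptor chains tested, 0 passed, where 0.16% of all genes did. The groups were separate for 1 above and 2 below, where 7.92% of all genes were above and 9.31% below.

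Il31ra is the close neighbour of Il6st. The 3′ end of its GENCODE span (chr13:112519898-112594360, minus strand) lies 9.81 kb from the end of Il6st with 0 coding genes between. The pseudogene Gm3226 overlaps one end of it. The window before its RefSeq start (chr13:112580663-112580912, inside the longer GENCODE span) is shown because this gene had the largest fold of the family, and because it holds the STAT string TTCCAGGAA 191 to 183 bases before the start, a string also present in 7.02% of all windows.
Il31ra: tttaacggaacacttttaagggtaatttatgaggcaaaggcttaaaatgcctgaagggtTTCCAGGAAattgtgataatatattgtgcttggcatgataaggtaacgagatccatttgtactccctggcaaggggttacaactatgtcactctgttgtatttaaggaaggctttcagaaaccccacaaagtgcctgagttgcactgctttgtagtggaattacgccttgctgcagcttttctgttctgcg
Unlike Il6st, Il31ra was level across the controls, with control 1 at 0.992 times the mean of controls 2 and 3.

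Among the other ligands, Clcf1, which encodes cardiotrophin-like cytokine, was at 73.2, 58.82 and 78.16 TPM in controls and at 76.9, 75.85 and 75.24 TPM with CXCL3, a level close to that of Il11 (log2 fold change 0.13 ± 0.11, 95% interval -0.13 to 0.38, adjusted p = 0.582 by limma). Its groups overlapped, with control 2 below the other libraries. Ebi3, a subunit shared by IL-27 and IL-35, was at 38.6 ± 3.90 and 37.5 ± 3.10 TPM (adjusted p = 0.862), and Cntf, the ciliary neurotrophic factor gene, at 1.94 ± 0.484 and 1.97 ± 0.364 TPM (0.955). Il27 was at no more than 0.26 TPM. Of the 6 genes in this list 4 were tested and 0 passed. They had 3 positive values and a median of 0.02, against 62.3% positive and a median of 0.07 over all genes tested.

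None of the kinase, inhibitor and protease genes around the receptors passed the test with all 6 libraries. Over all genes tested, 62.3% were positive, with a median log2 fold change of 0.07. Of 7 genes of Janus kinases and other STATs, 0 passed and 6 were positive (median log2 fold change 0.26). Controls 2 and 3 were below all other libraries for 5 of these 7 genes, for 4 of the 9 other brakes on this signalling, for 3 of the 4 shedding genes below and for 0 of the 3 other receptor chains, against 42.2% of all genes. The same held for 0 of the 4 other ligand genes tested and for 7 of the 22 STAT3 targets below. Over all these pathway lists it held for 38.8% of the 49 genes tested. The lists were not compared by a test. Jak1, the main kinase at gp130, was at 104.02, 61.82 and 70.59 TPM in controls and at 99.23, 98.12 and 89.75 TPM with CXCL3 (0.31 ± 0.18, adjusted p = 0.478), and turned to -0.12 without controls 2 and 3. Jak2 was at 27.6 ± 6.09 and 32.9 ± 1.85 TPM and Stat5a at 5.68 ± 2.09 and 7.39 ± 0.355 TPM. Of the 9 other brakes 0 passed, with 8 positive and a median of 0.10. Socs1, an inhibitor of the kinases related to Socs3, was the negative member, at 8.14, 9.78 and 8.41 TPM in controls and at 7.26, 7.05 and 6.83 TPM with CXCL3. Its groups did not overlap (log2 fold change -0.28 ± 0.12, 95% interval -0.57 to 0.01, adjusted p = 0.437 by limma). It passed in 1 setting, without control 1 and with the length trend removed (-0.43, adjusted p = 0.0438), where 13.1% of all genes did. The phosphatase genes Ptpn1 (39.4 ± 14.3 and 52.8 ± 4.56 TPM) and Ptpn11 (47.7 ± 15.2 and 57.9 ± 3.90 TPM) had the next smallest p (adjusted p = 0.451 and 0.494). Of 4 genes of receptor shedding, which frees soluble IL-6R from the cell surface, 0 passed and 3 were positive with a median of 0.18. The proteases Adam10 (39.5 ± 9.0 and 46.1 ± 1.86 TPM) and Adam17 (30.2 ± 7.08 and 33.8 ± 1.86 TPM) and the ADAM17 partner Rhbdf2 (36.3 ± 7.10 and 40.8 ± 0.605 TPM) were each lowest in controls 2 and 3. Without control 1, Jak1, Jak2, Stat5a, Ptpn1, Ptpn11, Adam10, Adam17 and Rhbdf2 were higher and passed (adjusted p 0.00538 to 0.0176 by limma). There 32.4% of all genes passed, and without controls 2 and 3 these values all turned negative. With library weights Jak1, Ptpn1 and Ptpn11 passed (adjusted p 0.0392 to 0.0447 by limma), where 11% of genes did. Ptpn1 also passed with the length trend removed and control 1 left out (0.49, adjusted p = 0.0269 by limma).

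Of 22 genes known as STAT3 targets, all tested, 1 passed and was lower, where 0.16% of all genes tested passed. For these targets 11 values were positive and 11 negative, where 62.3% of all genes were positive. Their median was -0.01 against 0.07 over all genes. The gene that passed was Hp, which encodes haptoglobin, an acute-phase protein induced by IL-6. It was at 310.73, 334.73 and 319.79 TPM in controls and at 192.0, 195.39 and 196.17 TPM with CXCL3 (log2 fold change -0.72 ± 0.06, adjusted p = 0.0293 by limma). Its groups were far apart, its controls were level (control 1 at 0.949 times the others), and its value was -0.67 both without controls 2 and 3 and with the length trend removed. The call was lost without control 3 (adjusted p = 0.10), without any 1 CXCL3 library (0.175 to 0.227), with median-of-ratios scaling (0.0991), without a filter (0.107) and without a variance trend (0.108). Saa3, another acute-phase gene, was at 12676.48, 16985.71 and 14161.7 TPM in controls and at 9839.28, 9863.64 and 9969.79 TPM with CXCL3 (-0.55 ± 0.11, adjusted p = 0.157). Saa3 passed by limma without control 1 (-0.65, adjusted p = 0.00538), where 32.4% of all genes did. It passed with library weights (-0.60, 0.0175), where 11% of genes did. With the length trend removed and control 1 left out it passed too (-0.67, 0.0135), where 13.1% of genes did. Without controls 2 and 3 its value was -0.36, given as a size only because that setting leaves 1 control. Cebpb, a transcription factor of the acute-phase response that also acts on Il6, was at 137.3, 125.31 and 167.29 TPM in controls and at 248.32, 216.19 and 189.16 TPM with CXCL3 (0.60 ± 0.13, adjusted p = 0.196). It lay higher in each treated library than in any control and passed without control 1 (0.58, adjusted p = 0.0308), but not with the length trend removed as well (0.63, 0.0505).

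The groups did not overlap for 7 of these 22 genes, 3 above and 4 below, where 7.92% of all genes were above and 9.31% below. Beside Cebpb those above were the cyclin gene Ccnd1 (25.4 ± 6.24 and 35.0 ± 1.69 TPM) and the survivin gene Birc5 (19.4 ± 1.00 and 26.0 ± 1.34 TPM). Beside Hp and Saa3 those below were the metalloproteinase inhibitor gene Timp1 (5907 ± 500.1 and 4720.0 ± 61.6 TPM) and the survival gene Mcl1 (94.1 ± 3.23 and 87.3 ± 2.34 TPM). These 4 were named after their values were seen, and their adjusted p by limma lay between 0.216 and 0.498. Many of the 22 answer to other pathways too, so their directions are not a measure of STAT3 activity. Macrophages also make several of them, and the macrophage marker C1qa was lower with CXCL3 by the same fit, at 248.64 to 325.52 TPM in controls and 161.82 to 172.73 TPM with CXCL3. It was the 1 of the 9 macrophage markers that passed, and Lyz2 (13259.89 to 16165.54 and 13114.62 to 13243.52 TPM) did not pass. The groups did not overlap for 4 of these 9 markers, 3 below and 1 above. The part of this in the values of Hp and Saa3 was not tested.

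**Figure D4:**
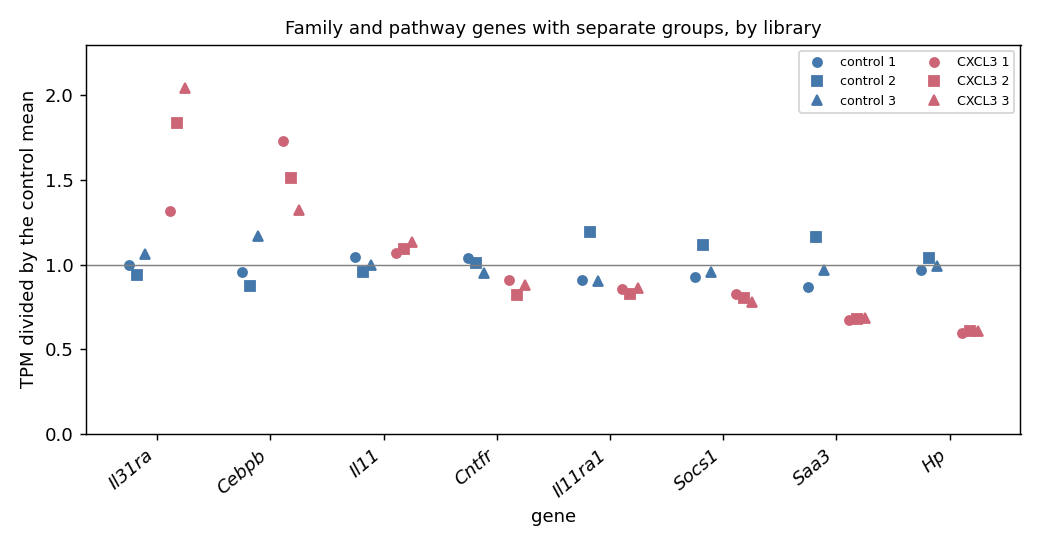
TPM of 8 family and pathway genes in each library, divided by the mean of the 3 controls (line at 1); blue marks are controls, red marks CXCL3, and the shape gives the replicate. Il31ra reaches 1.32, 1.84 and 2.05 and Hp 0.60, 0.61 and 0.61 in the treated libraries. The groups are separate for all 8 genes, which were chosen for the plot partly on that ground. Ccnd1, Birc5, Timp1 and Mcl1 were separate too and are not plotted.

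Genes whose levels most resembled those of 3 members over the 6 libraries were picked by Pearson's r of log2(TPM + 1) among genes with a mean of at least 5 TPM. For Il6 they were Serhl (r = 0.993), Ly86 (0.993), which encodes a partner of a Toll-like receptor homologue, and the mitochondrial carrier gene Mtch2 (0.992). Ly86 was at 10.39, 12.6 and 13.64 TPM in controls and at 9.08, 8.64 and 10.29 TPM with CXCL3. For Osmr they were Ywhaz, Fem1b and Tgfbr2 (0.999 each), of which Tgfbr2, the type II receptor of TGF-beta, was at 62.37, 26.75 and 32.78 TPM in controls and at 53.71, 50.51 and 46.17 TPM with CXCL3. For Socs3 they were Slc25a51 (0.996), Rabgef1 (0.993) and the kinase gene Frk (0.993). With 6 points shared by all genes, and with the controls split as described, such values rank likeness only.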

How the data were processed

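Members and gene lists were chosen with earlier results of these data known. Illumina libraries were made from DNase-treated TRIzol RNA that had passed a quality check, per the labels' protocols. The authors deposited values in TPM, 1 column per library, with 0 columns from elsewhere. Fastp, HISAT, RSEM and GRCm38.p5 are named in the submitters' processing notes. Versions, annotation release, strand setting and filters: not given in the sources used here. Deposited columns sum to 984281 to 986705 TPM, and no columns were identical.

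Symbols, positions and longest transcripts came from GENCODE mouse M21 (GRCm38), which matched 51633 of 51912 identifiers. Genes with at least 1 TPM in at least 3 libraries (13139) entered a limma fit (version 3.58.1, R 4.3.3) of log2(TPM + 1) (eBayes with trend, two-sided, Benjamini-Hochberg, threshold 0.05). This scale understates changes of low genes. The fit was also run on simulated data with independent noise of equal SD in both groups. Those data lack the split among the controls, so they do not bear on calls made under it. No set test was run. Named genes are the 10 members, pathway genes that passed or had up to the 3 smallest p of their list with means of at least 1 TPM, and 3 genes nearest to each of Il6, Osmr and Socs3. Further genes are marked as chosen afterwards. The result of 1 list gene is not reported here. Alternatives were other pseudocounts, filters and scaling, no variance trend, library weights (the iteration stopped before full convergence), length trend removal by loess, a replicate block and left-out libraries, with length removal without control 1 added after seeing the data.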

Additional observations from a re-analysis of the deposited data

How the results depend on the processing

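Of the 28 genes followed through 17 alternative settings, 9 kept their sign throughout, 2 of them members (Il6 and Il11). The count of members called was 0 with all libraries, 2 with library weights, 2 with the length trend removed and control 1 left out (the 1 setting added after seeing the data) and 0 to 6 when 1 library was left out (6 without control 1, 0 without any other). It was 0 in the other settings. The count of all genes called was 21, and became 0 without a filter, 5 with median-of-ratios scaling (0 higher and 5 lower, against 4 higher and 17 lower), 1 with eBayes without trend, 1446 with library weights, 35 with the length trend removed, 1713 with that and control 1 left out, 84 without controls 2 and 3, and 0 to 4254 with 1 library left out (4254 without control 1). The cause was not tested.

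Sign changes, none of them with a passing adjusted p, were as follows. Median-of-ratios scaling gave -0.03 for Lif, -0.05 for Osm, -0.02 for Socs3 and -0.03 for Cntf. Length trend removal gave -0.08 for Lif, -0.20 for Lifr and 0.02 for Ebi3, and with control 1 left out too -0.01 for Lif, -0.25 for Lifr and -0.01 for Clcf1. Without controls 2 and 3 the values were -0.29 for Lif, -0.11 for Osm, -0.28 for Il6ra, -0.28 for Il6st, -0.21 for Lifr, -0.20 for Osmr, -0.09 for Stat3, -0.14 for Socs3, 0.13 for Ebi3, -0.07 for Jak2, -0.12 for Jak1, -0.11 for Stat5a, -0.08 for Ptpn1, -0.17 for Ptpn11, -0.11 for Adam10, -0.12 for Rhbdf2, -0.18 for Adam17 and -0.18 for Cntf. With 1 library left out at a time, Lif ran from -0.06 to 0.21, Osm from -0.02 to 0.09, Lifr from -0.02 to 0.21, Socs3 from -0.03 to 0.15, Cntf from -0.12 to 0.13 and Ebi3 from -0.12 to 0.02. Osm was at 0 without control 2.

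Same-numbered control and CXCL3 libraries deviated from their group means with correlations of 0.12, -0.01 and 0.08 across genes. With so few libraries and the controls split, these values cannot decide whether the numbers pair libraries, and the labels do not say. A replicate block gave 12 calls over all genes and 0 among the members. Library depth is unknown in TPM, which limits Il6ra and Lifr most.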
